A study of Homo sapiens with 36 samples.

Results

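The genes described are the replication-dependent histone genes, which encode the H1 linker histones and the H2A, H2B, H3 and H4 core histones used when DNA is copied. They were chosen by symbol, as HIST1, HIST2, HIST3 and HIST4 genes of classes H1, H2A, H2B, H3 and H4 without the suffix PS. A summed count of at least 36 over the 36 libraries was also required. Of 57665 gene identifiers, 75 genes matched by name, and 28 of them met the count. Of the 47 genes left out, 14 had no count and 33 had 1 count to just under 36. By class, the members were 2 of 6 H1 genes, 4 of 17 H2A genes, 11 of 23 H2B genes, 4 of 14 H3 genes and 7 of 15 H4 genes. HIST1H3A was just inside the threshold with 41 counts, and HIST1H2AK was just outside it with 33.8.

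RNA was sequenced from U2OS, a human osteosarcoma line, that stably carried Dmr-PERK, in which the eIF2α kinase domain of mouse PERK is joined to a DmrB domain that pairs when a ligand, the dimerizer, is added. PERK phosphorylates eIF2α, which starts the integrated stress response and raises translation of the transcription factor ATF4. The groups were ATF4KO (ATF4 knockout) cells with dimerizer for 2, 4, 8, 16 and 24 h and untreated at 0 h, and WT cells at the same 6 times, with 3 wells each. All 36 libraries carried Dmr-PERK, and the only untreated wells were those labelled 0 h. An effect of time in the well was not tested. Neither the number of knockout clones nor the unit of the labelled dose is stated. The comparisons ask how histone mRNA changes after Dmr-PERK is dimerised and whether the change differs without ATF4.

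Most mRNAs of these genes carry no poly(A) tail. They end a few bases after a conserved stem-loop, which is bound by SLBP, and their 3′ ends are cut with the help of the U7 small nuclear RNP. Their transcription is driven in S phase by NPAT under cyclin E and CDK2, and they decay quickly when DNA synthesis stops. Some of the genes also give longer, spliced or polyadenylated mRNAs, a form known from cells that have left the cell cycle, and the genes lie in clusters where H2A and H2B genes often stand back to back.

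The stem-loop is shown for 5 members because it is the signal at which these mRNAs normally end and its letters vary between the members. Each run is on the transcript strand of GENCODE 29, 5′ to 3′, with the stem-loop in capitals and the bases beside it in lower case.
HIST2H2BE: ccaaaGGCTCTTTTCAGAGCCacccac
HIST1H2BD: ccaaaGGCTCTTTTAAGAGCCacgcat
HIST1H2AG: ccaacGGCTCTTTTCAGGGCCacccac
HIST4H4: caaaaGGCCCTTTTCAGGGCCcccaaa
HIST2H4A: ccaaaGGCCCTTTTTAGGGCCgaccac
Among the 19 members with a stem-loop in an annotated transcript, 7 had the form of HIST2H2BE, 3 H2B genes had that of HIST1H2BD, and HIST1H2AG and HIST1H3E each had a form of their own. All 7 H4 members had one of the other forms, 4 that of HIST4H4 and 3 that of HIST2H4A. The motif was searched by its consensus of 16 bases on the transcript strand, so a transcript without a match is only one whose annotation does not hold those letters.

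Levels are CPM, counts scaled to the library total after TMM normalization, changes are log2 fold changes ± SE, and group values are mean ± SD with n = 3. A gene is said to rise or fall where the adjusted p from edgeR's quasi-likelihood test was under 0.05, with Benjamini-Hochberg adjustment over all 19043 genes tested. Nothing in the labels ties the 3 wells to separate cultures, and the p values speak only of variation from well to well. Of the 28 members, 20 passed the filter on low counts and were tested. The other 8 were HIST1H4E with 188 counts over all libraries, HIST1H2BE with 151, HIST1H1E with 79, HIST1H2BF with 72, HIST1H3E with 60, HIST1H3B with 54, HIST3H2BB with 48.8 and HIST1H3A with 41, and none of them had more than 14 counts in a library.

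The annotated transcripts of the members differed from those of the other histone genes. Of 26 members matched to GENCODE 29 by identifier and version, 16 (61.5%) had a transcript that ran on for more than 50 bases past the stem-loop, 3 ended within 50 bases and 7 had no match to the stem-loop. The run was measured only in transcripts with a match. HIST1H2BD, counted among the 3, also has a longer transcript of 789 bases without a match. HIST1H2BN, counted among the 16, has a transcript that ends 5 bases after a match. Its run of 377 bases follows a match in another transcript, with other bases beside it. Of 46 matched genes under the count, 9 (19.6%) ran on, 4 ended within 50 bases and 33 had no match. A spliced transcript was annotated for 11 of 26 members and for 4 of 46 other genes, and the median longest transcript was 1390.5 bases in the members and 411 bases in the others. The members held 25488 counts in all and the other genes 289, a split whose direction was fixed by the count that chose the members. HIST1H4C, whose annotated transcript is 435 bases with no match to the stem-loop, had 6 counts over all libraries. Counts were assigned by the authors to annotated transcripts, so how far the annotation and how far the RNA selection set these levels was not tested. No source used here says whether poly(A) RNA was selected. As a measured reference, 12 small nuclear, nucleolar and other RNAs made without a poly(A) tail summed to 80.4 ± 19 CPM in untreated knockout cells and 113 ± 17.7 CPM in untreated WT cells (SD, n = 3 each). Nearly all of that was RN7SL2, an RNA of the signal recognition particle, at 76.3 ± 18.3 CPM in knockout and 109 ± 17.7 CPM in WT cells, and the other 11 summed to 4.03 ± 0.676 and 4.48 ± 0.0604 CPM. Of 21 such RNAs listed, 8 were left out because several gene identifiers share their symbol, among them RN7SK, RMRP, RPPH1 and RN7SL1. These sums therefore do not cover all RNAs of the kind.

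**Figure D1:**
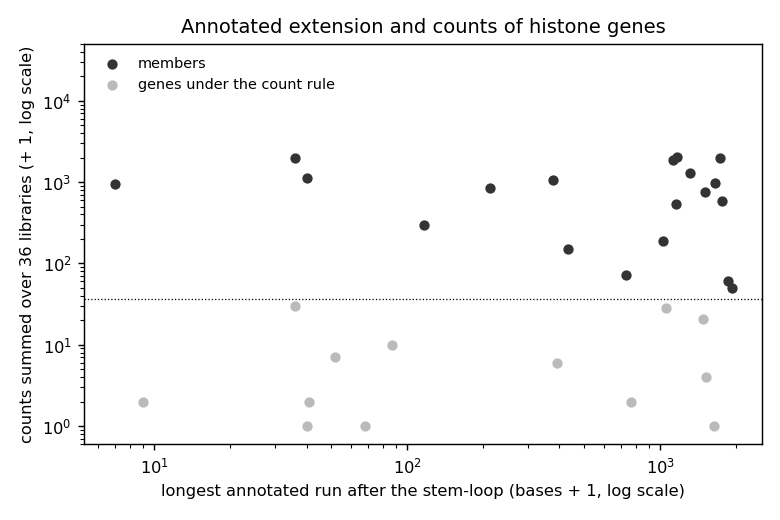
Counts summed over the 36 libraries against the longest run annotated past the stem-loop in any of the gene's transcripts with a match, in bases, both plus 1 on log scales, 1 point per histone gene with a stem-loop match. Members are dark, other genes light, and the dotted line is the count of 36 that chose the members, so the height of a point is what the choice used. Of the members, 16 lie past 50 bases, among them HIST2H2BE at 1729 and HIST4H4 at 1510 bases, and HIST1H4J lies at 6 bases.

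Libraries held 8608783 to 16265056 counts, of which 4.3 to 5.86% were mitochondrial, and 360 to 1346 counts per library fell in the 28 members, so single members rest on few counts. The targeted gene, ATF4, was at 259 to 760 CPM in the 18 knockout libraries and 310 to 746 CPM in the 18 WT libraries. No source used here gives the edited bases, so the level of its mRNA does not check the labels. Markers of the line were present, with means over all libraries of 2331 CPM for VIM, 997 CPM for SPARC, 923 CPM for COL1A1 and 36.2 CPM for RUNX2, whereas COL1A2 was at 0.466 CPM. Of the blood markers PTPRC was at 0.415 CPM and CD3E at 0.0018 CPM, and of the epithelial markers EPCAM was at 3.88 CPM and KRT18 at 615 CPM. In the 3 untreated knockout libraries the counts correlated best with the TPM column of another replicate of that group, so TPM values are printed for WT cells. In bulk RNA, fewer cells of a kind and less RNA per cell cannot be told apart.

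Per length, the linker histone gene HIST1H1C had the highest level in untreated WT cells, at 45 ± 3.29 TPM, followed by HIST1H2BK at 38.2 ± 4.26 TPM (SD, n = 3). The mean ± SD intervals of the pair overlapped, and both stood above HIST2H2AA4 at 23.1 ± 2.82 TPM. HIST1H2BD was at 17.4, HIST2H2BC at 15, HIST1H4J at 15 and HIST2H2AC at 14.8 TPM, and their mean ± SD intervals overlapped. The H3 class was low throughout, led by HIST2H3C at 1.71 ± 0.494 TPM. Its summed CPM in these cells, 2.12 ± 0.75, was also the lowest of the classes. TPM depends on annotated length, and the longest transcript is 381 bases for HIST1H2BK, 1656 for HIST2H3C and 2194 for HIST2H2BE. HIST2H2BE was at 5.5 ± 0.321 TPM, below HIST1H2BK. By CPM, all its untreated WT libraries lay above those of HIST1H2BK. How far annotated length sets the TPM order was not tested.

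Summed over the 28 members, histone levels were lowest at 8 h in knockout cells and at 24 h in WT cells. At 0, 2, 4, 8, 16 and 24 h the sum was 75.6 ± 3.02, 73 ± 4.5, 61 ± 0.692, 37.3 ± 2.44, 49.3 ± 5.67 and 51.1 ± 2.47 CPM in knockout cells. At the same times it was 84.2 ± 2.52, 86.4 ± 11.8, 60.4 ± 3.18, 43.2 ± 3.2, 48.6 ± 2.34 and 38.1 ± 1.63 CPM in WT cells. From 4 h on, none of the summed values of the treated libraries overlapped those of the untreated libraries of their genotype. At 24 h the summed level was 67.6% of its 0 h mean in knockout cells and 45.3% in WT cells. These sums are descriptions without a test, and reads given to a near-identical copy under the count, such as HIST2H2AA3, are not in them.

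**Figure D2:**
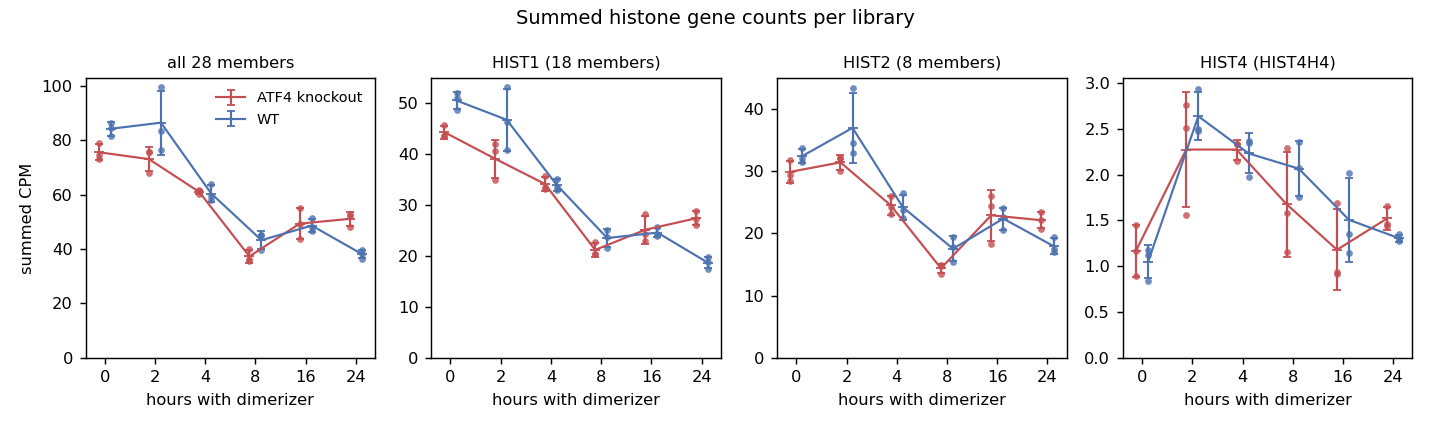
Summed CPM per library by hours with dimerizer for all 28 members and for the HIST1, HIST2 and HIST4 genes, with points for libraries, lines through the means and bars for the SD (n = 3). The knockout sums stand at 51.1 CPM and the WT sums at 38.1 CPM at 24 h, and HIST4H4 is above its untreated libraries at 2 and 4 h in both genotypes.

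The classes followed different courses. The H1 sum at 0, 8 and 24 h was 13.8 ± 0.898, 6.74 ± 1.38 and 6.12 ± 0.846 CPM in knockout cells and 14.7 ± 1.21, 6.02 ± 0.984 and 4.5 ± 0.987 CPM in WT cells. The H2B sum was 27.3 ± 2.59, 11.5 ± 0.413 and 17.8 ± 1.08 CPM in knockout cells and 30.7 ± 0.702, 13.7 ± 2.17 and 13.1 ± 0.477 CPM in WT cells. The H2A sum was 16.4 ± 0.727, 7.78 ± 0.422 and 11.8 ± 0.39 CPM in knockout cells and 17.7 ± 0.57, 8.52 ± 1.01 and 8.15 ± 0.931 CPM in WT cells. In these 3 classes all treated libraries at 8 and 24 h lay below the untreated ones of their genotype. The H4 sum was highest at 2 h, at 19.2 ± 1.66 CPM in knockout cells, against 16.5 ± 2.42 CPM at 0 h, and at 25.6 ± 3.89 CPM in WT cells, against 18.9 ± 0.707 CPM at 0 h. In WT cells all 3 H4 sums at 2 h were above those at 0 h, and in knockout cells they overlapped. The difference between the genotypes in this sum was not tested.

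Member by member, the fall was broad at 8 h. At 2 h 1 of 20 members rose and 0 fell in knockout cells, where 9.85% and 8.5% of all genes tested did. At 2 h 2 of 20 members rose and 1 fell in WT cells, where 12.2% and 10.4% of all genes tested did. These counts are close to the share of all genes. At 4 h 2 of 20 members rose and 5 fell in knockout cells, where 22.1% and 20.3% of all genes tested did. In WT cells at 4 h 2 of 20 members rose and 6 fell, where 23.6% and 21.1% of all genes tested did. At 8 h 1 of 20 members rose and 13 fell in knockout cells, where 30.7% and 31.1% of all genes tested did, so that the falling share was 65% of the members. In WT cells at 8 h 2 of 20 members rose and 12 fell, where 29.7% and 29.6% of all genes tested did, a falling share of 60%. The median member change at 8 h was −1.09 in knockout cells and −1.02 in WT cells, beside −0.043 and −0.024 over all genes tested.

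The counts were alike in the genotypes at 16 h and differed at 24 h. At 16 h 0 of 20 members rose and 8 fell in knockout cells, where 33% and 32.7% of all genes tested did. In WT cells at 16 h 1 of 20 members rose and 8 fell, where 33.7% and 32.8% of all genes tested did. The falling share at 16 h, 40% in each genotype, was not far above that of all genes. At 24 h 1 of 20 members rose and 7 fell in knockout cells, where 32.4% and 33% of all genes tested did. Counted singly, the members' falling share of 35% was near that of all genes. In WT cells at 24 h 1 of 20 members rose and 12 fell, where 33% and 32.4% of all genes tested did, a falling share of 60%. With near-identical copies summed, 9 of 19 fell at 24 h in knockout cells and 13 of 19 in WT cells. That alternative was chosen after the values were seen. The median member change at 24 h was −0.38 in knockout cells and −1.03 in WT cells, beside −0.029 and −0.023 over all genes. Over all 5 times, 13 members fell at least once in knockout cells and 15 in WT cells, the 13 being among the 15. Only HIST2H2AC and HIST2H4A, counted singly, fell in WT cells alone. The summed counts of HIST2H4A and HIST2H4B fell in both genotypes, at 8 and 24 h in knockout cells and at 24 h in WT cells. The HIST2H2AC call was lost in several of the alternatives, given below. Of all genes tested, 47.7% fell at least once in knockout cells and 46.8% in WT cells. Of the members fitted singly, HIST1H2BN and HIST4H4 rose at some time in both genotypes and no other did, where 46.7% of all genes rose at least once in knockout cells and 46.9% in WT cells. The summed counts of HIST2H4A and HIST2H4B also rose, at 2 h in WT cells. HIST1H4J, HIST2H2BD and HIST2H4B passed singly at no time.

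**Figure D3:**
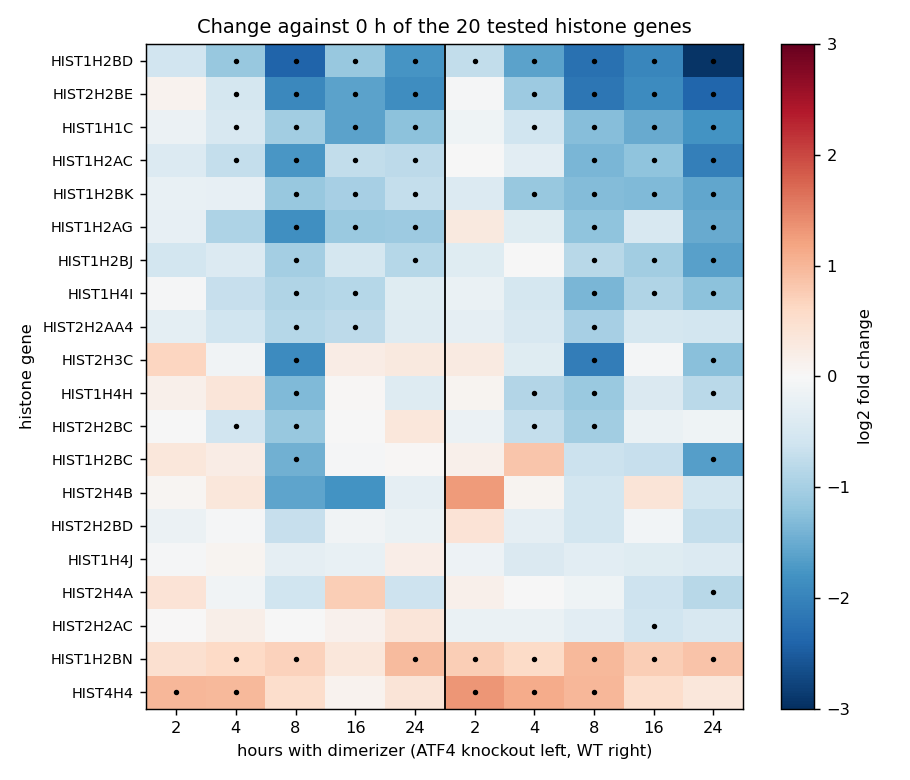
Log2 fold change against 0 h of the 20 tested members (rows) at 2 to 24 h in knockout cells (left 5 columns) and WT cells (right 5 columns), with a dot where the change passed at an adjusted p under 0.05. Blue rows at the top fell at 4 to 24 h, and the bottom rows, HIST1H2BN and HIST4H4, are red in both genotypes.

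In the H1 class, HIST1H1C, the linker histone H1.2 gene, fell from 4 h on in both genotypes. Its 3 libraries had 14.4, 12.7 and 14 CPM at 0 h, 7.68, 7.3 and 5.1 CPM at 8 h and 5.29, 7.08 and 5.02 CPM at 24 h in knockout cells. In WT cells they had 15.2, 13.1 and 15.2 CPM at 0 h, 5.17, 5.8 and 6.93 CPM at 8 h and 3.97, 3.6 and 5.41 CPM at 24 h. Treated and untreated libraries did not overlap in either genotype at these times. The change at 24 h was −1.24 ± 0.16 in knockout cells (adjusted p = 4.07e-09) and −1.78 ± 0.17 in WT cells (adjusted p = 1.83e-12). The gene lies at chr6:26055787-26056428 on the minus strand (GRCh38) and is a single exon. HIST1H1E, the H1.4 gene, had at most 8 counts in a library and was not tested.

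In the H2A class, HIST1H2AC and HIST1H2AG fell in both genotypes. HIST1H2AC had 6.13, 6.76 and 6.21 CPM at 0 h, 2.06, 1.44 and 2.15 CPM at 8 h and 4.04, 3.98 and 3.21 CPM at 24 h in knockout cells. In WT cells it had 7.71, 6.9 and 7.02 CPM at 0 h, 2.58, 2.54 and 3.2 CPM at 8 h and 1.38, 2.02 and 1.8 CPM at 24 h. In knockout cells all 3 libraries at 24 h were above all 3 at 8 h, whereas in WT cells all 3 were below them. The change at 24 h was −0.77 ± 0.17 in knockout cells (adjusted p = 0.000115) and −2.05 ± 0.20 in WT cells (adjusted p = 3.05e-12). HIST1H2AG fell by 1.84 ± 0.42 in knockout cells and by 1.21 ± 0.39 in WT cells at 8 h on the log2 scale, where its untreated means were 1.95 and 2.09 CPM. At 24 h it had 1.06, 0.651 and 1.05 CPM in knockout cells and 0.69, 0.825 and 0.636 CPM in WT cells. Its WT call at 8 h was lost without WT 8 h replicate 2 (adjusted p = 0.0611) and its knockout call at 24 h without knockout 24 h replicate 2 (adjusted p = 0.0649).

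HIST2H2AA4 and its copy HIST2H2AA3 share sequence, so their reads can move between them. HIST2H2AA4 had 5.67, 0 and 4.23 CPM in the 3 knockout libraries at 16 h, and the value of 0 is a library in which the copy held the counts. Summed, an alternative chosen after the values were seen, the pair was at 6.19 ± 1.17, 3.49 ± 0.475 and 4.72 ± 0.739 CPM at 0, 8 and 24 h in knockout cells and at 6.18 ± 0.659, 3.1 ± 0.65 and 4.11 ± 0.458 CPM in WT cells. The pair fell at 4, 8, 16 and 24 h in both genotypes, by 0.85 ± 0.17 in knockout cells and 0.98 ± 0.18 in WT cells at 8 h on the log2 scale (adjusted p = 4.68e-05 and 1.33e-05). HIST2H2AC had 1.98, 1.44 and 2.15 CPM at 8 h and 2.18, 1.96 and 1.62 CPM at 0 h in knockout cells, and 2.11, 2.09 and 1.21 CPM at 8 h and 1.84, 2.27 and 2.6 CPM at 0 h in WT cells. Its libraries overlapped at 8 h, and it passed only in WT cells at 16 h, with −0.59 ± 0.25 (adjusted p = 0.0395). That call was lost without WT 0 h replicate 2, WT 0 h replicate 3, WT 16 h replicate 1 or WT 16 h replicate 3 (adjusted p = 0.0507 to 0.176), and also with DESeq2 (adjusted p = 0.0956) and without the filter on low counts (adjusted p = 0.134).

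In the H2B class, HIST1H2BD and HIST2H2BE had the largest falls of the tested members at 24 h. HIST1H2BD had 4.16, 5.25 and 4.27 CPM at 0 h, 0.578, 1.27 and 0.718 CPM at 8 h and 1.06, 1.81 and 1.05 CPM at 24 h in knockout cells. In WT cells it had 6.06, 6.6 and 7.02 CPM at 0 h, 1.88, 1.36 and 1.04 CPM at 8 h and 0.949, 0.975 and 0.53 CPM at 24 h. All treated libraries lay below all untreated ones of their genotype, and the change at 24 h was −1.78 ± 0.26 in knockout cells and −2.95 ± 0.28 in WT cells (adjusted p = 1.27e-07 and 1.98e-12). It was also the only member that fell at 2 h, in WT cells, with −0.73 ± 0.20 (adjusted p = 0.00698), a call lost without WT 2 h replicate 2 (adjusted p = 0.0657). Its annotated span of chr6:26158146-26171349 on the plus strand overlaps LARP1P1 on the same strand and AL353759.1 on the other. No source used here gives the strand setting of the counting, so its counts could hold reads of those genes.

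HIST2H2BE had 6.86, 8.9 and 8.73 CPM at 0 h, 2.23, 2.21 and 2.01 CPM at 8 h and 1.92, 2.1 and 2.65 CPM at 24 h in knockout cells. In WT cells it had 7.97, 8.08 and 7.3 CPM at 0 h, 2.35, 1.54 and 1.39 CPM at 8 h and 1.55, 1.35 and 1.59 CPM at 24 h. The groups did not overlap, and at 24 h the gene had changed by −1.87 ± 0.18 in knockout cells and by −2.38 ± 0.21 in WT cells (adjusted p = 6.61e-12 and 1.72e-13). It starts 323 bases from HIST2H2AC, and the pair is transcribed away from each other. At 8 h HIST2H2BE changed by −1.94 ± 0.19 and HIST2H2AC by −0.012 ± 0.26 in knockout cells. In WT cells at 8 h they changed by −2.18 ± 0.21 and −0.32 ± 0.26. The difference between the neighbours was not tested.

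The other back-to-back pairs in which both genes are members are HIST1H2AC with HIST1H2BC, 219 bases apart, and HIST1H2AG with HIST1H2BJ, 292 bases apart. HIST1H2BC was low, with 0.769, 0.795 and 0.697 CPM at 24 h and 0.416, 0.801 and 0.905 CPM at 0 h in knockout cells, and 0.172, 0.375 and 0.106 CPM at 24 h and 0.725, 0.591 and 0.913 CPM at 0 h in WT cells. It fell at 24 h in WT cells, by 1.66 ± 0.54 on the log2 scale (adjusted p = 0.00653). In knockout cells it had 0, 0.34 and 0.431 CPM at 8 h and fell by 1.44 ± 0.52 (adjusted p = 0.0151). That call was lost without knockout 0 h replicate 3 or knockout 8 h replicate 1 (adjusted p = 0.0919 to 0.115) and with only the contrast's groups fitted (adjusted p = 0.0596). HIST1H2BJ fell in both genotypes at 8 and 24 h, with −0.86 ± 0.35 in knockout cells and −1.64 ± 0.37 in WT cells at 24 h. Its knockout call at 24 h was lost without knockout 0 h replicate 2, knockout 0 h replicate 3 or knockout 24 h replicate 2 (adjusted p = 0.0753 to 0.193), and also with DESeq2 (adjusted p = 0.0761), without the filter on low counts (adjusted p = 0.0823) and with only the contrast's groups fitted (adjusted p = 0.0558). Its calls at 8 h were lost without knockout 0 h replicate 3 or knockout 8 h replicate 2 (adjusted p = 0.0854 to 0.0971) and without WT 0 h replicate 1, WT 0 h replicate 3, WT 8 h replicate 1 or WT 8 h replicate 3 (adjusted p = 0.0778 to 0.153). The WT call at 8 h was also lost with DESeq2 (adjusted p = 0.0906) and without the filter on low counts (adjusted p = 0.0802).

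HIST1H2BK fell from 8 h in knockout cells and from 4 h in WT cells. It had 4.88, 5.07 and 4.07 CPM at 0 h, 3.88, 3.96 and 3.9 CPM at 4 h and 2.21, 3.25 and 2.86 CPM at 24 h in knockout cells. In WT cells it had 5.01, 6.11 and 5.55 CPM at 0 h, 2.55, 2.1 and 2.87 CPM at 4 h and 1.98, 1.8 and 1.8 CPM at 24 h. At 24 h the change was −0.72 ± 0.18 in knockout cells and −1.56 ± 0.20 in WT cells (adjusted p = 0.000718 and 3.22e-09). HIST2H2BC was low at 4 and 8 h only. Its mean at 0, 8 and 24 h was 4.18 ± 0.112, 1.92 ± 0.357 and 5.25 ± 0.304 CPM in knockout cells and 4.2 ± 0.741, 2.07 ± 0.464 and 3.89 ± 0.14 CPM in WT cells, and it fell at 4 and 8 h in both genotypes but passed at neither 16 nor 24 h. The knockout call at 4 h was lost without knockout 0 h replicate 3 or knockout 4 h replicate 1 (adjusted p = 0.0518 to 0.0666), and also with DESeq2 (adjusted p = 0.0643) and without the filter on low counts (adjusted p = 0.0597). At 24 h all 3 knockout libraries lay above the untreated ones, with a change of 0.33 ± 0.17 (adjusted p = 0.0901). HIST2H2BD, at 1.14 CPM over all libraries, passed in no comparison.

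HIST1H2BN rose against the direction of the class. It had 2.88, 3.18 and 2.72 CPM at 24 h and 1.56, 1.25 and 1.68 CPM at 0 h in knockout cells. It had 2.59, 3.52 and 3.07 CPM at 24 h and 1.78, 1.97 and 1.4 CPM at 0 h in WT cells. No library overlapped, and the change was 0.95 ± 0.22 in knockout cells and 0.85 ± 0.21 in WT cells (adjusted p = 0.000198 and 0.000524). In WT cells it passed at all 5 times and in knockout cells at 4, 8 and 24 h. Its calls at 4 h were lost without knockout 0 h replicate 1, knockout 0 h replicate 2, knockout 0 h replicate 3, knockout 4 h replicate 2 or knockout 4 h replicate 3 (adjusted p = 0.0509 to 0.308) and without WT 0 h replicate 1, WT 0 h replicate 3, WT 4 h replicate 1, WT 4 h replicate 2 or WT 4 h replicate 3 (adjusted p = 0.0602 to 0.182). The 4 h call was also lost in knockout cells with DESeq2 (adjusted p = 0.119), without the filter on low counts (adjusted p = 0.185) and with only the contrast's groups fitted (adjusted p = 0.0952), and in WT cells with DESeq2 (adjusted p = 0.132), without the filter on low counts (adjusted p = 0.198) and with only the contrast's groups fitted (adjusted p = 0.0793). At 8 h the knockout call was lost without knockout 0 h replicate 2 or knockout 8 h replicate 3 (adjusted p = 0.0514 to 0.0622), and at 2 h the WT call without WT 0 h replicate 3 (adjusted p = 0.0673). Both of these were lost as well without the filter on low counts (adjusted p = 0.056 in knockout and 0.0539 in WT cells). Its annotated span, chr6:27837760-27865798 on the plus strand, contains HIST1H2AL on the same strand and HIST1H2AK on the other, so its counts could hold reads of either.

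**Figure D4:**
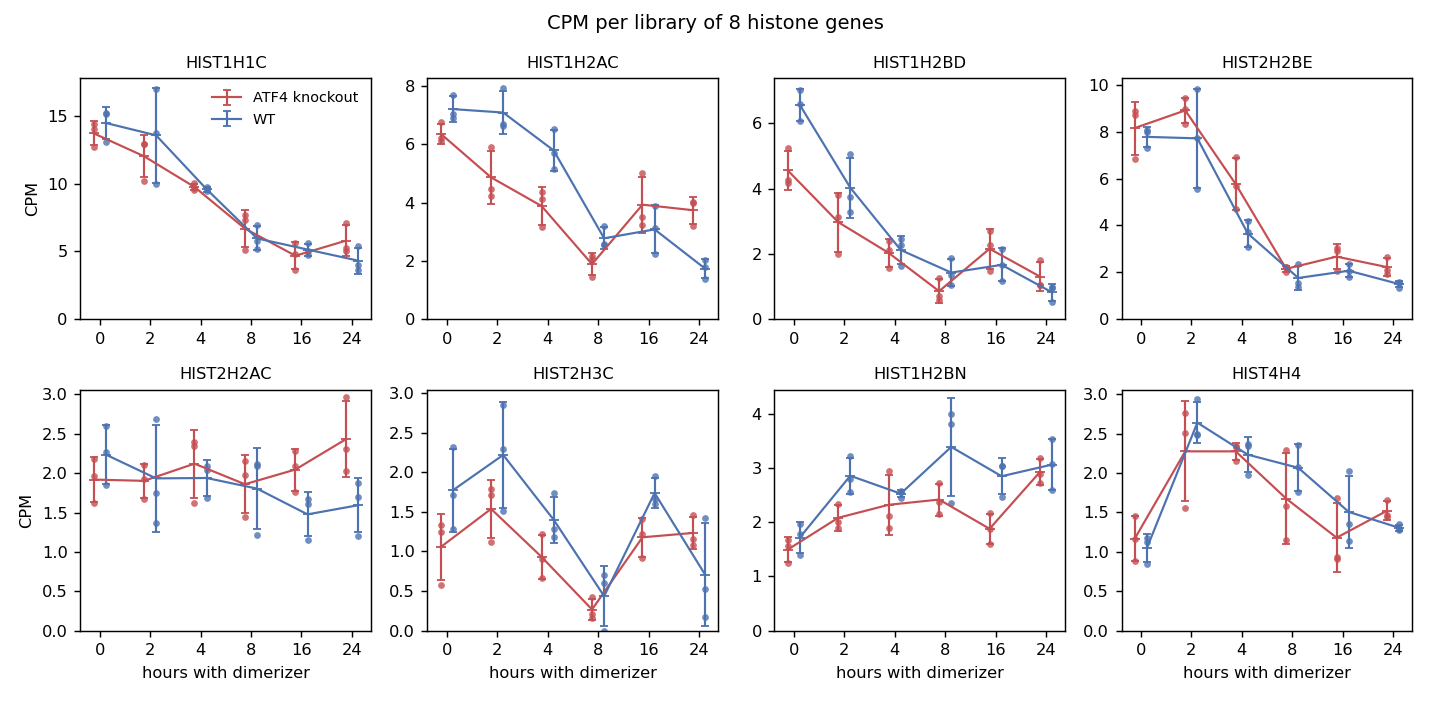
CPM per library of 8 members by hours with dimerizer, with points for libraries, lines through the means and bars for the SD (n = 3). HIST1H1C, HIST1H2AC, HIST1H2BD and HIST2H2BE lie lower at 8 to 24 h than at 0 h, HIST2H2AC overlaps its start at 8 h, and HIST1H2BN and HIST4H4 lie above it at 2 h in WT cells.

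In the H3 class only HIST2H3C was tested. It had 1.25, 1.33 and 0.582 CPM at 0 h, 0.165, 0.424 and 0.215 CPM at 8 h and 1.15, 1.08 and 1.46 CPM at 24 h in knockout cells. In WT cells it had 1.71, 1.28 and 2.32 CPM at 0 h, 0.705, 0 and 0.606 CPM at 8 h and 0.172, 1.42 and 0.53 CPM at 24 h. At 8 h all libraries were below their untreated ones, and the gene had fallen by 1.89 ± 0.58 in knockout cells and by 2.08 ± 0.49 in WT cells on the log2 scale (adjusted p = 0.00441 and 0.000348). At 24 h the WT change of −1.26 ± 0.42 passed, with overlap between libraries, and the call was lost without WT 0 h replicate 3 or WT 24 h replicate 1 (adjusted p = 0.0632 to 0.102). The gene overlaps HIST2H4A on the other strand. HIST1H3B and HIST1H3E, genes of canonical H3, had at most 4 and 6 counts in a library.

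In the H4 class the genes moved in both directions. HIST4H4, the only member on chromosome 12, rose early. It had 1.56, 2.76 and 2.51 CPM at 2 h and 1.45, 0.89 and 1.16 CPM at 0 h in knockout cells. It had 2.94, 2.48 and 2.49 CPM at 2 h and 1.12, 1.18 and 0.843 CPM at 0 h in WT cells. The libraries did not overlap, and the change was 1.00 ± 0.27 in knockout cells (adjusted p = 0.00696) and 1.32 ± 0.26 in WT cells (adjusted p = 0.000148). The knockout call was lost without knockout 2 h replicate 2 (adjusted p = 0.0822), and DESeq2 gave no adjusted p for the gene at 2 h. HIST4H4 also rose at 4 h in both genotypes and at 8 h in WT cells, and at 24 h it had 1.44, 1.66 and 1.46 CPM in knockout cells and 1.29, 1.35 and 1.27 CPM in WT cells.

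HIST1H4H fell at 8 h, with 0.578, 1.1 and 1.15 CPM at 8 h and 1.97, 1.96 and 3.04 CPM at 0 h in knockout cells, and 1.41, 1.54 and 1.39 CPM at 8 h and 3.29, 3.55 and 2.67 CPM at 0 h in WT cells. The changes were −1.32 ± 0.25 and −1.11 ± 0.23 (adjusted p = 1.76e-05 in knockout and 5.96e-05 in WT cells). HIST1H4I fell at 8 and 16 h in both genotypes, with −0.91 ± 0.29 in knockout cells and −1.37 ± 0.30 in WT cells at 8 h, the knockout call being lost without knockout 8 h replicate 1 (adjusted p = 0.0534). HIST1H4J, whose reads can be split with HIST1H4K, had 2.98, 3.61 and 3.14 CPM at 24 h and 2.49, 2.4 and 3.43 CPM at 0 h in knockout cells, and 1.38, 1.5 and 1.8 CPM at 24 h and 1.45, 2.66 and 2.18 CPM at 0 h in WT cells. Its libraries overlapped in both genotypes.

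HIST2H4A and HIST2H4B have a transcript of identical sequence, and the deposited counts swung between them. In the 3 knockout libraries at 2 h HIST2H4A had 9.47, 6.75 and 1.71 CPM while HIST2H4B had 0, 2.34 and 5.62 CPM. Only their sum is therefore read here, an alternative chosen after the values were seen. At 0, 2, 8 and 24 h it was 7.1 ± 1.23, 8.63 ± 1.14, 3.87 ± 0.657 and 5.05 ± 0.245 CPM in knockout cells. At the same times it was 8.98 ± 0.715, 14.5 ± 3.09, 7.46 ± 0.663 and 5.42 ± 0.214 CPM in WT cells. The sum rose at 2 h in WT cells, with 0.66 ± 0.13 (adjusted p = 0.000136), and in knockout cells its change was 0.29 ± 0.15 (adjusted p = 0.198). The difference between the genotypes at 2 h did not pass (−0.37 ± 0.20, adjusted p = 0.713). At 8 h the sum fell in knockout cells, by 0.88 ± 0.17 on the log2 scale (adjusted p = 2.69e-05). In WT cells the change at 8 h was −0.26 ± 0.15 (adjusted p = 0.133), and the difference between the genotypes did not pass (−0.62 ± 0.23, adjusted p = 0.0556). At 24 h the sum fell by 0.48 ± 0.16 in knockout cells and 0.73 ± 0.16 in WT cells. The separate HIST2H4A call in WT cells at 24 h was lost without WT 0 h replicate 2, WT 0 h replicate 3, WT 24 h replicate 1 or WT 24 h replicate 3 (adjusted p = 0.0713 to 0.233), and also with DESeq2 (adjusted p = 0.106).

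Promoter windows from RefSeq (GRCh38.p14), 250 bases before to 50 after the start, are shown for the 2 members that fell most and the 2 that rose. HIST1H2BD is at chr6:26157871-26158170, plus strand, HIST2H2BE at chr1:149886633-149886932, minus strand, HIST1H2BN at chr6:27838319-27838618, plus strand and HIST4H4 at chr12:14771082-14771381, minus strand. Capitals mark the CCAAT box, the TATA motif (TATAAA) and, in HIST2H2BE, the octamer ATTTGCAT, each on either strand.
HIST1H2BD: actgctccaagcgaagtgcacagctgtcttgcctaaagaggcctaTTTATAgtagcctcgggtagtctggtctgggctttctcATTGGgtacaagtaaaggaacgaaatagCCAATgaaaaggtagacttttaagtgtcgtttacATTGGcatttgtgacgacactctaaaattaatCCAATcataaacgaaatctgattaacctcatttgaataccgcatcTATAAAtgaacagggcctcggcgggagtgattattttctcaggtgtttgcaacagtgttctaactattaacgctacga
HIST2H2BE: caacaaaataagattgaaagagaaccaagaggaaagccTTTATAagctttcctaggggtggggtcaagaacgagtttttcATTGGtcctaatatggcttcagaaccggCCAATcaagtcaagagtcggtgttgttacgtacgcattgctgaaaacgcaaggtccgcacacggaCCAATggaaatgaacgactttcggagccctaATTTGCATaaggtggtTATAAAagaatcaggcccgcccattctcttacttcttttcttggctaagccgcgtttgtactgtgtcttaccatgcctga
HIST1H2BN: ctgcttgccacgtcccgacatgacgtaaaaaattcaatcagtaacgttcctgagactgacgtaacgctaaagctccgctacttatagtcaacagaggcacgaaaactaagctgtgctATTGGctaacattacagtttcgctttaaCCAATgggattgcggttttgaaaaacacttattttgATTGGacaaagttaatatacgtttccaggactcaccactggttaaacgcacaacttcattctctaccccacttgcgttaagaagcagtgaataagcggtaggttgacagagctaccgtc
HIST4H4: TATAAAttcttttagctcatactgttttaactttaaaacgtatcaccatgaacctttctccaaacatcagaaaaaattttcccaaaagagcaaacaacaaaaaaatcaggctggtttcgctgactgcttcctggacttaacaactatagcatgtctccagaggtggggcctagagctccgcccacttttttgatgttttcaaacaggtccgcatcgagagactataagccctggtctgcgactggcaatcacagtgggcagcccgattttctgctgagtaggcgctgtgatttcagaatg
The octamer is the site of OCT1 (POU2F1), known for its part in H2B transcription. It was found in 9 of 24 members with a window (37.5%), against 2.19% of 27305 genes. All 3 H2A windows and 6 of 9 H2B windows held it, and no H1, H3 or H4 window did. Divergent H2A and H2B genes have overlapping windows, so that these 9 genes rest on 6 distinct sites in the genome, 3 of them each counted for both genes of a pair. CCAAT was in 75% of the members and 39.7% of all genes, and TATAAA in 62.5% and 14%. The composite C/EBP-ATF motif TGATGNAAT, the kind of site that ATF4 binds with C/EBP partners, was in 0 of 24 windows and 1.22% of all genes. The CRE TGACGTCA was in 4 windows, those of HIST1H2BK, HIST1H4E, HIST1H4H and HIST2H3C (16.7%), and in 2.25% of all genes. Both strands were searched, none of the matches is shown to be bound, and no match says only that the letters are not in the window.

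Of the 7 tested members with the octamer, 5 fell at 24 h in knockout cells and 6 in WT cells, with median changes of −0.77 and −1.64. Of the 10 without it, 2 fell in knockout cells and 6 in WT cells, with medians of −0.32 and −0.82. Of all genes tested, 33% fell at 24 h in knockout cells and 32.4% in WT cells. Of the tested members, 7 were listed from earlier knowledge as genes that also give polyadenylated mRNA, namely HIST1H1C, HIST1H2AC, HIST1H2BC, HIST1H2BD, HIST1H2BK, HIST2H2BE and HIST1H4H. Their summed level at 0, 8 and 24 h was 40.5 ± 1.44, 14.9 ± 1.16 and 18.4 ± 1.67 CPM in knockout cells and 45.5 ± 0.543, 16.1 ± 1 and 12.2 ± 0.601 CPM in WT cells. The other 21 members summed to 35 ± 3.13, 22.4 ± 1.49 and 32.7 ± 1.7 CPM in knockout cells and 38.7 ± 2.13, 27.2 ± 2.43 and 25.9 ± 1.63 CPM in WT cells. At 24 h, 5 of the 7 listed members fell in knockout cells and 7 of 7 in WT cells, and of the other 13 tested members 2 fell in knockout cells and 5 in WT cells, beside the same 33% and 32.4% of all genes. The tested members with the octamer are all H2A or H2B genes, and those of a divergent pair share a site. HIST1H2AC, HIST1H2BC, HIST1H2BK and HIST2H2BE stand both among them and in the polyadenylated list. Those without the octamer include HIST2H4A and HIST2H4B counted singly. The parts of class, octamer and list were not tested. The lists are small and were chosen with earlier results known, so these counts are descriptions.

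Before the dimerizer, no member differed between knockout and WT cells by the edgeR test, and 2 of 20 had an unadjusted p under 0.05. Over all genes, 11.6% were higher and 11.9% lower in untreated knockout cells. The median member difference was −0.18, beside −0.0044 over all genes. Summed over the 28 members, the untreated libraries held 73.1 to 78.9 CPM in knockout and 81.5 to 86.5 CPM in WT cells. These ranges did not overlap, and the difference between the sums was not tested. DESeq2 also called 0 members, and 1 passed with only these 6 libraries fitted or without knockout 0 h replicate 3.

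The change after dimerizer was compared directly, as the knockout change minus the WT change. At 2 h 0 of 20 members passed, where 0.0105% of all genes were higher and 0.289% lower. At 4 h 1 member was higher and 0 lower (0.887% and 2.39% of all genes), and at 8 h 0 passed (11.3% and 6.99%). At 16 h 1 was higher and 0 lower (16.7% and 11%). At 24 h 4 were higher and 0 lower (17.7% and 12.1%). The 24 h count is near the share of all genes that were higher. With DESeq2 0 members passed at 2 or 8 h, and 0 had an unadjusted p under 0.05 by edgeR at either time, whereas 1 passed at 2 h without the filter on low counts. At 24 h all 20 member differences were above 0, from 0.065 for HIST4H4 to 1.70 ± 0.69 for HIST1H2BC (adjusted p = 0.0604), with a median of 0.53 beside 0.045 over all genes. The members share libraries, and the 2 courses rest on the same 0 h libraries at every time, so this is a description. The 0 h levels, which summed lower in knockout than in WT cells, enter every one of these differences.

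The 4 members at 24 h were HIST1H2AC, HIST1H2BD, HIST1H2BK and HIST2H3C, and in each the knockout change lay above the WT change. The first 3 fell in both genotypes, and HIST2H3C was at 0.30 ± 0.43 in knockout cells (adjusted p = 0.556). For HIST1H2AC the difference was 1.27 ± 0.27 (adjusted p = 0.000222), and it passed in every alternative tried, DESeq2 and each library left out included. For HIST1H2BK it was 0.84 ± 0.27 (adjusted p = 0.0157), lost without knockout 0 h replicate 3 or knockout 24 h replicate 2 (adjusted p = 0.0527 to 0.0756), and also with DESeq2 (adjusted p = 0.0654) and without the filter on low counts (adjusted p = 0.0548). For HIST1H2BD it was 1.17 ± 0.42 (adjusted p = 0.0296), lost without knockout 0 h replicate 3, knockout 24 h replicate 2, WT 0 h replicate 3 or WT 24 h replicate 3 (adjusted p = 0.0522 to 0.206), and also with DESeq2 (adjusted p = 0.0522). For HIST2H3C it was 1.56 ± 0.60 (adjusted p = 0.0467), lost with DESeq2 (adjusted p = 0.0616) and with only the contrast's groups fitted (adjusted p = 0.0588), and without knockout 0 h replicate 3, knockout 24 h replicate 1, knockout 24 h replicate 2, knockout 24 h replicate 3, WT 0 h replicate 1, WT 0 h replicate 3, WT 24 h replicate 1 or WT 24 h replicate 3 (adjusted p = 0.0545 to 0.184). The HIST1H4H difference at 4 h was 1.23 ± 0.31 (adjusted p = 0.0142), with 3.06, 3.05 and 3.12 CPM in knockout cells and 2.04, 1.75 and 1.38 CPM in WT cells at 4 h. It was lost without knockout 0 h replicate 2 or WT 4 h replicate 3 (adjusted p = 0.0508 to 0.0693), and also with DESeq2 (adjusted p = 0.087) and without the filter on low counts (adjusted p = 0.0669). The HIST2H4A difference at 16 h, 1.35 ± 0.49, was gone when HIST2H4A and HIST2H4B were summed (0.38 ± 0.21, adjusted p = 0.183), and it was lost without knockout 0 h replicate 3, knockout 16 h replicate 1, knockout 16 h replicate 3, WT 0 h replicate 2, WT 0 h replicate 3, WT 16 h replicate 1 or WT 16 h replicate 2 (adjusted p = 0.0509 to 0.148), and also with DESeq2 (adjusted p = 0.142).

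The listed genes of histone mRNA synthesis, processing and turnover mostly moved the other way from the members at 24 h. The list holds decay factors, ERI1 and XRN1 among them, so its counts are not those of synthesis and processing alone. Of 30 such genes, 26 rose and 2 fell in knockout cells and 24 rose and 1 fell in WT cells, with medians of 0.49 and 0.29. In knockout cells 32.4% of all genes rose and 33% fell at 24 h, and in WT cells 33% rose and 32.4% fell. These shares of all genes also stand beside the 24 h counts of the lists that follow. SLBP, which binds the stem-loop, was at 64.7 ± 1.05 CPM at 24 h and 34.7 ± 4.7 CPM at 0 h in knockout cells and at 59.5 ± 3.27 CPM at 24 h and 41.5 ± 3.12 CPM at 0 h in WT cells. It rose by 0.92 ± 0.062 in knockout cells and by 0.51 ± 0.061 in WT cells, and the difference of 0.40 ± 0.088 passed (adjusted p = 0.000326). ZNF473, a factor of U7-dependent cutting, rose by 1.05 ± 0.073 and 1.01 ± 0.07. ERI1, a nuclease that trims histone mRNA, rose by 1.06 ± 0.059 in knockout cells and 1.31 ± 0.055 in WT cells. SNRPB, a core protein of small nuclear RNPs, rose by 0.73 ± 0.033 and 0.44 ± 0.032. NPAT, the coactivator of histone transcription, rose by 0.17 ± 0.069 and 0.22 ± 0.067. CCNE2, a cyclin E gene, rose by 0.66 ± 0.11 in knockout cells and was at −0.13 ± 0.10 in WT cells. ZCCHC6, which adds uridines to histone mRNA in decay, fell by 0.49 ± 0.061 in knockout cells and 0.34 ± 0.061 in WT cells.

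The genes of DNA replication and S phase, with which histone mRNA is usually made, also rose at 24 h. Of 44 genes, 44 rose and 0 fell in knockout cells and 36 rose and 3 fell in WT cells, with medians of 0.91 and 0.55. CDC6, a licensing factor of replication origins, rose by 1.68 ± 0.055 in knockout cells and 1.70 ± 0.05 in WT cells. E2F1, a transcription factor of S phase entry, rose by 1.43 ± 0.052 and 0.70 ± 0.048, and POLD2, a subunit of DNA polymerase delta, by 0.99 ± 0.033 and 0.77 ± 0.032. The genes TK1, LIG1 and RRM2 fell in WT cells, by 0.34 ± 0.046, 0.32 ± 0.049 and 0.19 ± 0.038. At 8 h, when the members were low in both genotypes, 24 of the 44 rose and 5 fell in knockout cells and 25 rose and 9 fell in WT cells. Of all genes, 30.7% rose and 31.1% fell at 8 h in knockout cells and 29.7% rose and 29.6% fell in WT cells. In untreated knockout cells 44 of 44 were lower than in untreated WT cells (median −0.43), at a time when no histone member was called. The summed histone level was also lower there, at 75.6 ± 3.02 CPM against 84.2 ± 2.52 CPM, a difference not tested. Of 22 genes of mitosis and G2/M, 15 rose and 1 fell at 24 h in knockout cells and 8 rose and 9 fell in WT cells, among them KIF20A, a mitotic kinesin, with −0.79 ± 0.075 and −1.10 ± 0.074. The part of the cell cycle in the members' courses was not tested.

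**Figure D5:**
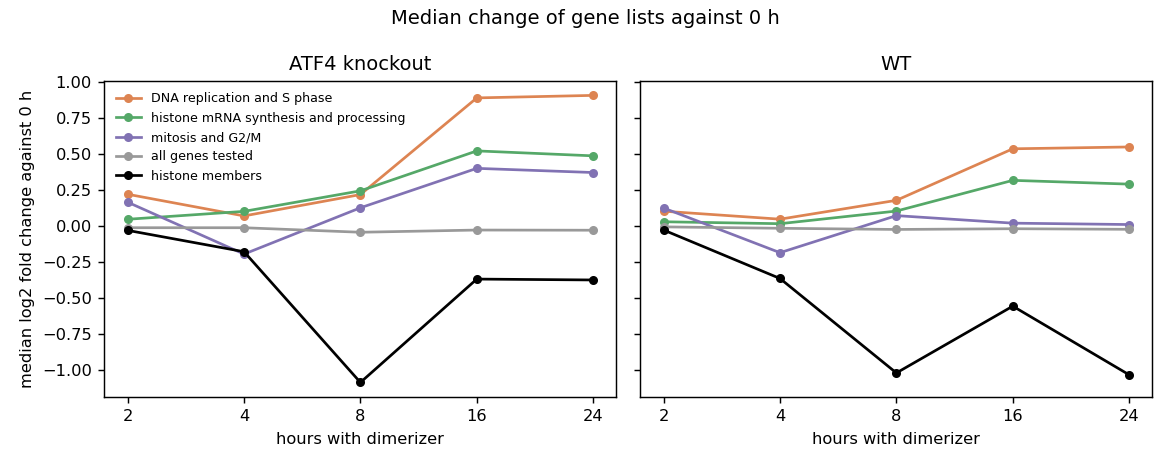
Median log2 fold change against 0 h of 5 gene lists at 2 to 24 h, knockout cells left and WT cells right. The list labelled histone mRNA synthesis and processing also holds genes of turnover. The histone members reach −1.09 at 8 h and −0.38 at 24 h in knockout cells and −1.02 and −1.03 in WT cells, while the DNA replication list reaches 0.91 and 0.55 at 24 h, and the median of all genes tested stays within 0.05 of 0.

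Histone chaperones mostly rose and the replication-independent histones split. Of 23 genes of chaperones and nuclear import, 16 rose and 4 fell at 24 h in knockout cells and 14 rose and 5 fell in WT cells. SSRP1, a subunit of the FACT complex, rose by 1.05 ± 0.031 and 0.75 ± 0.031, and IPO4, an importin that carries histones, by 1.45 ± 0.044 and 1.03 ± 0.044. ATRX, a chromatin remodeller that helps deposit H3.3, fell by 0.37 ± 0.035 and 0.47 ± 0.035. Of 11 genes listed as replication-independent histones, 5 rose and 5 fell at 24 h in knockout cells and 5 rose and 5 fell in WT cells. At 8 h 4 rose and 7 fell in knockout cells, where 30.7% and 31.1% of all genes tested did. In WT cells at 8 h 3 rose and 7 fell, where 29.7% and 29.6% of all genes tested did. H1F0, the H1.0 linker histone gene known from cells that leave the cycle, was at 1802 ± 80.1 CPM at 24 h and 748 ± 31.4 CPM at 0 h in knockout cells and at 1988 ± 42.4 CPM at 24 h and 1112 ± 24.5 CPM at 0 h in WT cells. It rose by 1.27 ± 0.037 in knockout cells and 0.84 ± 0.037 in WT cells, while HIST1H1C fell in both. H3F3A, a gene of the H3.3 variant, fell by 0.39 ± 0.032 and 0.64 ± 0.032, and H2AFX by 0.27 ± 0.047 and 0.65 ± 0.046. Of 4 tested RNAs made without a poly(A) tail outside the histones, 2 rose at 24 h in each genotype and none fell. RN7SL2 rose by 0.65 ± 0.15 in knockout cells and 0.52 ± 0.14 in WT cells, and SNORA73B by 1.26 ± 0.31 and 1.24 ± 0.31.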

How the data were processed

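RNA-seq libraries of 36 wells were made with a directional kit from total RNA, per the labels' protocols, and no source used here mentions poly(A) selection. Per the submitters' processing notes, FastQC 0.11.5, Salmon 0.9.1 and the build GRCh38 were used, with no settings, strand choice or annotation release stated there. The authors deposited expected counts per gene and TPM values. For 33 of 36 libraries the counts correlated best with the TPM column of the same name, and the 3 others were the untreated knockout libraries.

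Expected counts were rounded to whole numbers and fitted in edgeR 4.0.16 (R 4.3.3, limma 3.58.1) with TMM scaling, its default filter on low counts and 1 mean per group over all 12 groups. The quasi-likelihood F-test gave 16 contrasts, with Benjamini-Hochberg adjustment over 19043 genes and a threshold of 0.05. The fit was checked on simulated counts. Alternatives were RLE scaling, no filter, only the groups of a contrast, DESeq2 1.42.0, a replicate block, each library left out, and copies summed (chosen after seeing the data).

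Genes were matched to GENCODE 29 by identifier and version (53330 of 57665) for structure, and promoter windows came from RefSeq GRCh38.p14 by symbol. The members and gene lists were chosen with earlier results of these data known. Named genes were the 3 members per class with the highest mean, up to 4 passing members per contrast with the largest change, at 1 CPM or more and without overlap, up to 2 passing against the majority, every tested member outside HIST1, and in each other list up to 4 genes with the smallest adjusted p at 24 h and up to 3 against, with SLBP, NPAT, E2F1 and CCNE2.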

Additional observations from a re-analysis of the deposited data

Results flagged for a closer look

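For 6 members the change against 0 h differed between knockout and WT cells by the test of the difference itself (edgeR, log2 knockout change minus WT change). At 4 h the difference was 1.23 for HIST1H4H, and at 16 h it was 1.35 for HIST2H4A, whose counts are shared with HIST2H4B. At 24 h it was 1.27 for HIST1H2AC, 0.84 for HIST1H2BK, 1.17 for HIST1H2BD and 1.56 for HIST2H3C. Of these 6, HIST1H2AC alone kept its call under DESeq2.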

How the results depend on the processing

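Of 91 calls of named members, RLE scaling and the replicate block kept all 91. DESeq2 kept 77, lost 12 and gave no adjusted p for the rest. No filter on low counts kept 81, fits of only the contrast's groups kept 85, and no call turned round. The main fit did not pair the wells by replicate number. In 0 of 16 contrasts did every same-numbered pair correlate above 0.1, whereas 21 of 36 libraries correlated best with their own number. Whether wells of the same number belong together was not tested. The counts of members that moved were those of the genotype differences and of knockout cells at 2 h. Without the filter, the differences at 2, 4 and 16 h numbered 1, 0 and 2. In fits of only the contrast's groups they were 2 at 4 h and 2 at 16 h, and 1 between untreated genotypes. DESeq2 gave 0 in knockout cells at 2 h, and 0, 0 and 1 for the differences at 4, 16 and 24 h, and summing copies gave 0 at 16 h. The 0 at 2 h counts HIST4H4, for which DESeq2 gave no adjusted p, as not called. Summing copies also gave 10 calls of 19 in knockout cells at 24 h, beside 8 of 20 with genes counted singly. Without HIST1H1C the log2 ratio of summed CPM at 24 h was −0.45 in knockout cells and −1.04 in WT cells, beside −0.57 and −1.14. The causes were not tested. With 1 library left out, calls ranged over 1 to 2, 5 to 6, 11 to 14, 6 to 9 and 6 to 9 at 2, 4, 8, 16 and 24 h in knockout cells and over 2 to 3, 7 to 9, 13 to 14, 8 to 11 and 11 to 14 in WT cells. The differences ranged over 0, 0 to 2, 0, 0 to 3 and 1 to 5, and the untreated genotypes over 0 to 1. The 24 h differences fell to 2 without WT 0 h replicate 3 and to 1 without knockout 0 h replicate 3 or knockout 24 h replicate 2. At 16 h they rose to 3 without WT 16 h replicate 3 and fell to 0 without WT 0 h replicates 2 or 3, WT 16 h replicates 1 or 2, or knockout 0 h replicate 3. At 4 h they rose to 2 without WT 0 h replicate 1 and fell to 0 without WT 4 h replicate 3 or knockout 0 h replicate 2, and knockout cells at 2 h had 2 calls without knockout 2 h replicate 1. The summed log2 ratio ranged from −0.61 to −0.53 in knockout cells and from −1.17 to −1.11 in WT cells. Member counts per library were 360 to 1346, and 8 of the 28 members held too few for the filter and were not tested.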
